A study of Saccharomyces cerevisiae with 6 samples.

Results

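Copper is taken up by yeast after reduction at the cell surface, carried to the enzymes that need it by small chaperones, and bound by metallothioneins when it is in excess. When copper is scarce, the transcription factor Mac1 activates the genes for the copper transporters Ctr1 and Ctr3 and for the surface reductases Fre1 and Fre7. When copper is plentiful, the transcription factor Cup2 (also called Ace1) activates the genes for the metallothioneins Cup1 and Crs5. In the S288C laboratory background, CTR3 is known to be held at a low level by a transposon in its promoter.

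The 9 genes described here are those of copper transport and the metallothioneins: CTR1, CTR2, CTR3, MAC1, FRE7, CUP1-1, CUP1-2, CUP2 and CRS5, of 6256 genes with a probe on the array. They were chosen by their role in copper biology, with their signals in these arrays and the spread of CTR3 among the F3 arrays already known. The differences between strains in these 9 genes are thus given as a description, with no p-value. Calls among the 9 are counted only to set them beside the share of all genes, and are not a test of these genes. Transcript levels were measured in Saccharomyces cerevisiae in 2 groups: the sulfur dioxide-resistant mutant F3, which came from evolutionary engineering, and the reference strain it is set against. Each group holds 3 cultures in early exponential growth (OD600 near 1.0) in minimal medium at 30 °C, with no added sulfite named in the labels, and each culture was read on 1 one-colour Agilent array. A growth label also names overnight culture in YPD, a rich medium, and how it relates to the minimal medium is not stated. F3 is 1 selected mutant, and neither its mutations nor the strain background, mating type or copper content of the medium is given in the sources used here.

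A level is the log2 signal of a gene minus the 75th percentile of its array. A level of 0 is thus a signal equal to that percentile, and 1 unit is a 2-fold difference. Each gene has 1 probe with 2 spots, and all 9 genes passed the filter on dim signals. Between 93.6% and 95.3% of the genes were well above background on each array, and the 75th percentile of the signal was 8314 to 9534 intensity units on the F3 arrays and 2791 to 4973 on the reference arrays. The 3 F3 arrays lay on 1 slide and the reference arrays on 2 others, scanned at other times, so slide, scan and strain cannot be told apart. The quality marks for negative controls and for the spot grid were out of range on all 3 F3 arrays and in range on the reference arrays, and their part in the results was not tested. The mean log2 signal of added spike-in RNAs was 11.92, 11.86 and 11.71 on the F3 arrays. On the reference arrays it was 11.68, 12.32 and 13.22, a wide spread within the reference. With scaling to these RNAs, the median difference of all genes moved from 0.05 to 1.76. That scaling called 5092 genes higher and 255 lower in F3, against 2467 and 2275 by the main scaling. "Higher" and "lower" are therefore relative to the 75th percentile throughout.

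**Figure D1:**
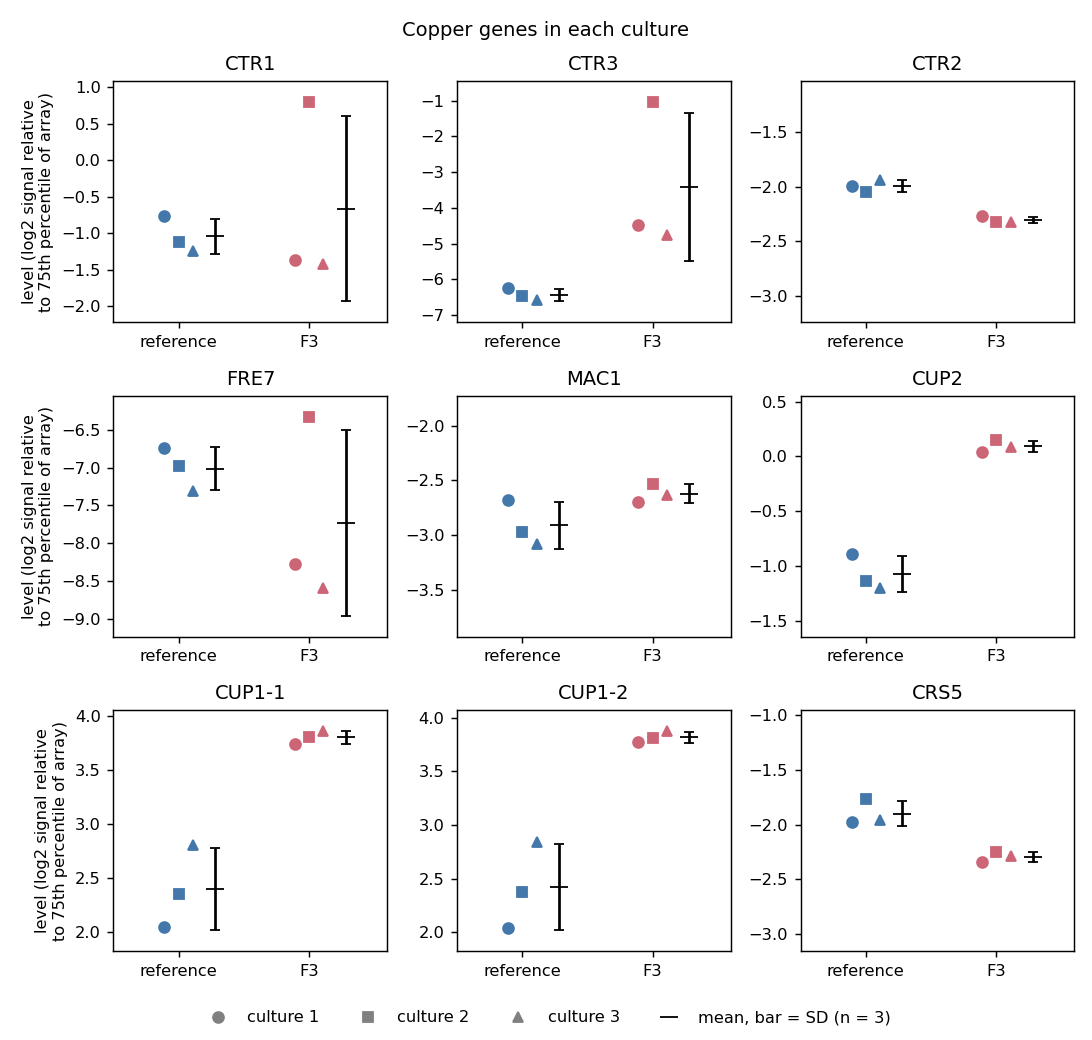
Levels of the 9 copper genes in each culture (y axis: log2 signal minus the array's 75th percentile). Points are cultures, and the bar beside them is the mean with its SD (n = 3). F3 culture 2 stands apart from the other F3 cultures for CTR1, CTR3 and FRE7, and the 3 F3 cultures lie close together for the other 6 genes.

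Of the 9 copper genes, CTR3, CUP2 and both CUP1 probes were at least 2-fold higher in F3 than in the reference. CTR2 and CRS5 were slightly lower, and CTR1, FRE7 and MAC1 overlapped between the strains. As a description only, limma's adjusted p was under 0.05 for 7 of the 9, with 5 higher and 2 lower in F3. Over all 5948 genes tested, that share was 79.7%, with 41.5% higher and 38.2% lower. For a call with at least a 2-fold difference, the counts were 4 of the 9 and 32.8% of all genes, and for values that did not overlap between the strains 6 of the 9 and 82.4%. With F3 culture 2 left out, 7 of the 9 were again called. MAC1 then lost its call and FRE7 gained one. With normexp background correction 6 of the 9 were called: CTR3 and MAC1 lost their calls and FRE7 gained one.

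CTR3 (YLR411W), which encodes a high-affinity copper transporter of the plasma membrane, had the widest spread of the 9 genes. Its level was −4.47, −1.04 and −4.76 in F3 cultures 1, 2 and 3, and −6.24, −6.47 and −6.59 in the reference cultures. Each F3 culture lay above each reference culture, and F3 culture 2 lay far above the other F3 cultures. In intensity units the probe read 431, 4409 and 306 in F3 and 36.9, 55.0 and 51.7 in the reference, so the reference signals were dim, although well above background on all 6 arrays. The difference between the strain means was 3.01 ± 0.84 (SE of the fit), or 8.06-fold. Without F3 culture 2 it was 1.82, and with normexp background correction it was 1.80.

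CTR1 (YPR124W), the main high-affinity copper transporter, showed the same culture standing apart. Its level was −1.37, 0.80 and −1.43 in the F3 cultures and −0.77, −1.13 and −1.24 in the reference. F3 cultures 1 and 3 lay just below the lowest reference culture, while F3 culture 2 lay above them all, so the strains overlapped. The difference of the means was 0.38 ± 0.52 (SE), and it turned to −0.35 without F3 culture 2 and was 0.73 or 0.76 without F3 culture 1 or 3.

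FRE7 (YOL152W), a surface reductase gene that Mac1 activates under copper scarcity, was dim in both strains. Its level was −8.28, −6.32 and −8.60 in the F3 cultures and −6.74, −6.99 and −7.31 in the reference cultures. It was not well above background in F3 culture 3. F3 cultures 1 and 3 thus lay below all reference cultures and F3 culture 2 above them. The difference was −0.72 ± 0.51 (SE), and it was −1.42 without F3 culture 2 and −0.45 or −0.29 without F3 culture 1 or 3.

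MAC1 (YMR021C) itself varied little. It was at −2.70, −2.53 and −2.63 in F3 and at −2.68, −2.97 and −3.08 in the reference, and the highest reference culture lay above the lowest F3 culture. The difference of 0.29 ± 0.11 (SE) kept its call in 5 of 15 alternative settings. In F3 culture 2, MAC1 was 0.14 above the mean of the other F3 cultures. Its excess over the higher of these cultures was 0.10, which is rank 1224 of the 5948 genes.

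**Figure D2:**
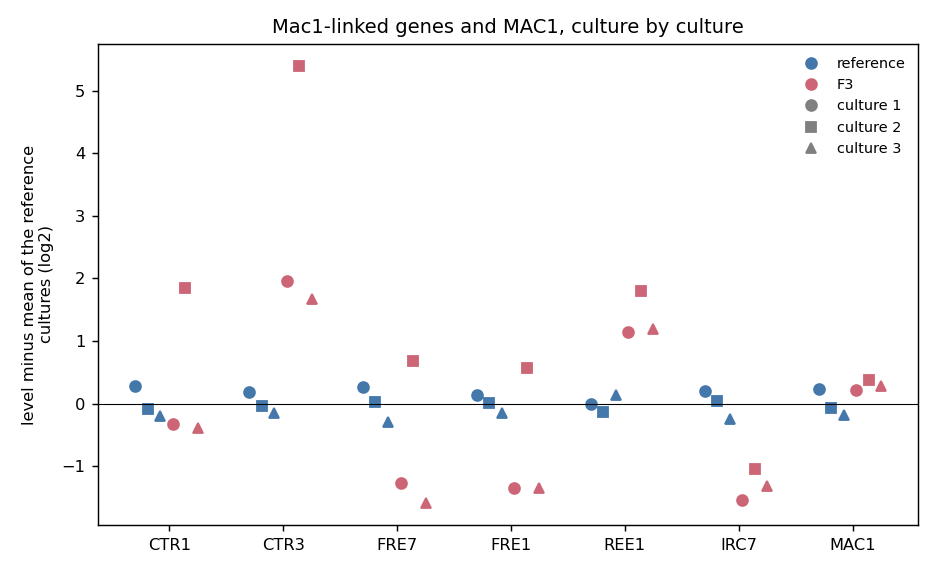
Level of each Mac1-linked gene and of MAC1 minus the mean of the 3 reference cultures (y axis, log2), culture by culture, with symbols for the cultures and colours for the strains. F3 culture 2 is the highest F3 culture for all 7 genes, and only for CTR1, CTR3, FRE7 and FRE1 does it lie more than 1.9 above the mean of the other F3 cultures.

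F3 culture 2 was therefore compared with the other F3 cultures over the whole array. In that culture 14 of the 5948 genes (0.235%) lay at least 1 above both other F3 cultures and 5 at least 1 below both. The same counts were 0 and 2 for F3 culture 1, 1 and 1 for F3 culture 3, and at most 7 and 3 for a reference culture. CTR3, CTR1 and FRE7 ranked 1, 2 and 4 by this excess, with values of 3.43, 2.16 and 1.95. STL1, a glycerol transporter gene outside the copper lists, ranked 3 with 2.11. FRE1 (YLR214W), the major surface reductase for copper and iron, is not one of the 9 genes and ranked 5, with 1.93. Against the mean of the other F3 cultures, culture 2 was 11.9-fold higher for CTR3, 4.58-fold for CTR1 and 3.80-fold for FRE1. No fold is given for FRE7, which was not well above background in F3 culture 3. These are single-array differences with no replicate and no test.

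On the array of F3 culture 2 the spots behind these values lay close together. The 2 spots of the CTR3 probe differed by 0.06 on this array, those of CTR1 by 0.04 and those of FRE7 by 0.03. On the arrays of F3 cultures 1 and 3 the FRE7 spots lay further apart, by 0.16 and 0.28. Those of CTR3 differed there by 0.08 and 0.006, and those of CTR1 by 0.07 and 0.05. Over all 6 arrays the spots differed by up to 0.60 for CTR3 and 0.85 for FRE7. The array of F3 culture 2 had a 75th percentile of 9066 units and 94.2% of genes well above background, each between the values of the other F3 arrays. Its quality marks for negative controls and spot grid were out of range, as on all 3 F3 arrays. Whether the array plays a part in the excess of culture 2 was not tested. Other scalings left the excess of culture 2 over the mean of the other F3 cultures between 3.30 and 3.71 for CTR3, between 2.16 and 2.21 for CTR1 and between 1.81 and 1.97 for FRE1. For FRE7 it ranged from 0.92 with normexp to 2.11.

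**Figure D3:**
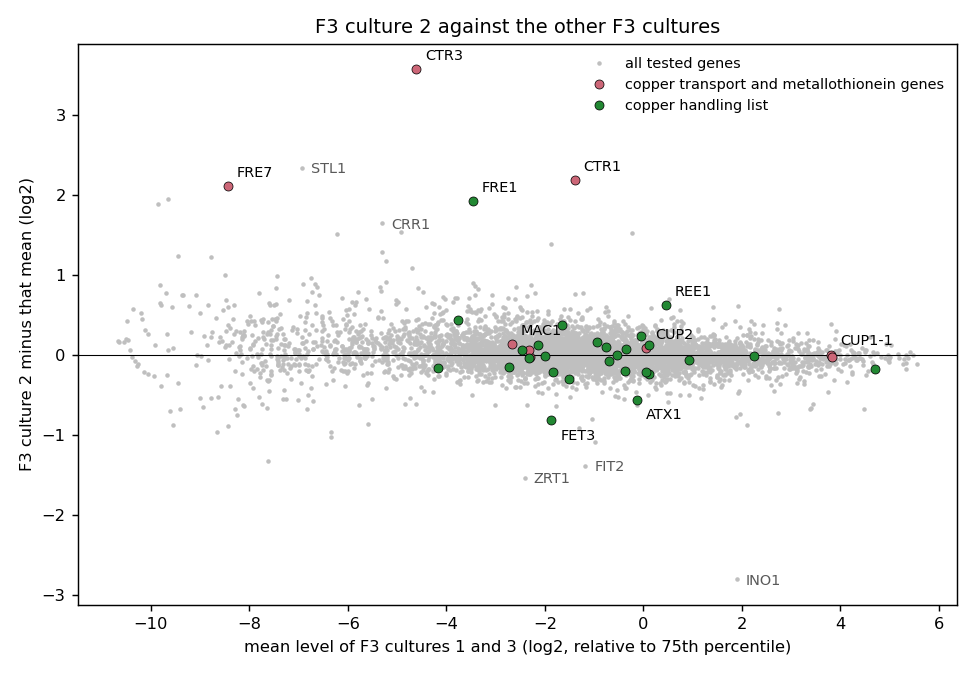
Each tested gene by its mean level in F3 cultures 1 and 3 (x axis, log2 relative to the 75th percentile) and by F3 culture 2 minus that mean (y axis, log2). CTR3 has the largest excess (3.58), and STL1, a glycerol transporter gene, lies at 2.35. CTR1, FRE7 and FRE1 lie near 2, and MAC1, CUP2 and CUP1-1 lie near 0.

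FRE1 varied like the transporters: it was at −3.46, −1.54 and −3.46 in F3 and at −1.97, −2.11 and −2.27 in the reference. As with FRE7, culture 2 lay above the reference range and F3 cultures 1 and 3 below it. FRE1 was not called by limma (−0.71 ± 0.46 SE, adjusted p = 0.181), and was called lower without F3 culture 2 (−1.35, adjusted p = 1.1e-05). The other Mac1 targets on the copper handling list moved less. REE1, an enolase regulator, ranked 58 by excess in culture 2 (0.60) and IRC7, a cysteine desulfhydrase gene, ranked 349 (0.27). Between the strains REE1 rose by 1.38 ± 0.17 (SE, limma adjusted p = 7.7e-05), and IRC7 fell by 1.29 (SE 0.15, adjusted p = 5.0e-05, or 0.42 above the reference with spike-in scaling).

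Among the reference cultures the same 4 genes shared an order. CTR1, CTR3, FRE7 and FRE1 were each highest in culture 1 and lowest in culture 3, over ranges of 0.29 to 0.57. The order was not particular to them. MAC1 and CUP2 had it too, while CTR2, CUP1-1, CUP1-2 and CRS5 did not, and its share over all genes was not counted. Reference cultures 1 and 2 shared a slide and culture 3 lay on another, and whether slide plays a part in this was not tested.

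Genes were then ranked by likeness to CTR3, as Pearson's r of levels centred within each strain over the 6 arrays, among the 10 other genes whose within-strain SD was at least 0.73, set against 1.47 for CTR3. The 5 most alike were FRE1 (r = 0.996), CTR1 (0.993), FRE7 (0.987), STL1 (0.979), which encodes a glycerol transporter, and RRT7 (0.971). RRT7 was well above background on only 4 of the 6 arrays, with signals of 14.3, 43.6 and 8.53 units in F3. STL1 was dim in the reference, at 26.6, 43.0 and 55.2 units. INO1, the enzyme that makes inositol phosphate, was the most opposite (r = −0.989). These r values describe 6 arrays with shared scaling, and they rest on F3 culture 2. The SD cut rests on that culture too, since it was set from CTR3, whose SD was 2.07 in F3 and 0.18 in the reference. Of the genes that passed it, all but OSW1 and NFT1 lay at least 1 above or below both other F3 cultures in culture 2. An r of large size was thus favoured by the cut.

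The remaining genes of F3 culture 2 that lay apart were looked at after their values were seen. Besides those above, the genes at least 1 above both other F3 cultures were YDR509W, CRR1, NCA3, FLO11, PRM1, JEN1, ADY2 and YMR326C. They include FLO11, an adhesin of the cell surface, and JEN1, a lactate and pyruvate transporter. YDR509W was well above background on only 3 of the 6 arrays, with signals of 10.3, 36.4 and 9.01 units in F3. CRR1 (YLR213C), which lies next to FRE1 on the opposite strand in the RefSeq gene order, was 1.65 above the mean of the other F3 cultures. The tested neighbours of the transporters did not share their excess. AXL1 and YLH47, on either side of CTR1, were at −0.19 and 0.09, and BER1, downstream of CTR3, was at −0.06. Upstream of CTR3, YLR410W-A and YLR410W-B were not among the genes tested, so that side has no value. Next to FRE7, ZPS1 was at 0.18 and GRE2 at −0.81. The 5 genes at least 1 below both other F3 cultures were INO1, ZRT1, a zinc transporter gene, FIT2, a cell wall protein gene of iron uptake, YDR034C-A and OPT2. Of these, YDR034C-A was well above background on only 3 arrays, with signals of 54.6, 18.3 and 37.1 units in F3. FET3, the copper-dependent iron oxidase, was 0.81 below the mean of the other F3 cultures. ATX1, the copper chaperone that serves the pathway to Fet3, was 0.56 below that mean. By the difference from the lower of the other F3 cultures, FET3 ranked 15 (−0.78) and ATX1 41 (−0.49) from the bottom.

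The vacuolar copper transporter gene CTR2 (YHR175W), whose product releases stored copper, did not share this pattern. Its levels of −2.27, −2.32 and −2.32 in F3 and −1.99, −2.05 and −1.94 in the reference did not overlap. F3 was lower by a difference of −0.31 ± 0.07 (SE), or 1.24-fold, which turned to 1.40 with spike-in scaling.

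CUP2 (YGL166W), the activator of the metallothionein genes, was higher in F3. Its level was 0.04, 0.15 and 0.08 in the F3 cultures and −0.89, −1.13 and −1.20 in the reference cultures. The strains were separated by far more than the spread within either, with SDs of 0.05 and 0.16, and F3 culture 2 did not stand apart. The difference was 1.16 ± 0.10 (SE), or 2.24-fold, and it lay between 1.10 and 1.26 when any 1 culture was left out.

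CUP1-1 (YHR053C) and CUP1-2 (YHR055C) encode the same copper metallothionein from tandem copies. The CUP1-1 probe read 3.74, 3.81 and 3.86 in F3 and 2.04, 2.35 and 2.81 in the reference. The 3 F3 cultures lay within 0.12 of each other, while the reference cultures spanned 0.76, with the highest on a slide of its own. The difference was 1.41 ± 0.17 (SE), or 2.65-fold, and reached 1.69 with quantile normalization. The CUP1-2 probe differed from the CUP1-1 probe by at most 0.03 on any array, and its difference was 1.40 ± 0.18. Since both copies may bind either probe, the pair is treated as 1 measurement of CUP1 transcripts. No saturated spot was marked among the gene probes.

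CUP1 copy number is known to differ between yeast strains, and was not measured here, so more copies and more transcript per copy cannot be told apart. YHR054C, which lies between the CUP1 copies in the RefSeq gene order, was at 0.05, 0.29 and −0.07 in F3 and at 0.17, 0.25 and 0.32 in the reference. It was not called (−0.16 ± 0.10 SE, limma adjusted p = 0.191). RSC30, the chromatin remodelling gene on the other side of CUP1-2, read within 0.11 of YHR054C on every array, so these probes may not be separate either (−0.21 ± 0.11 SE, adjusted p = 0.104). Both were called lower without F3 culture 2 (limma adjusted p = 0.030 and 0.031), and RSC30 also with normexp (−0.30, adjusted p = 0.025). CIC1, a ribosome assembly gene on the far side of CUP1-1, fell by 3.11 (SE 0.08, adjusted p = 9.7e-09).

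CRS5 (YOR031W), the second metallothionein gene, went the other way from CUP1. Its levels were −2.35, −2.25 and −2.29 in F3 and −1.98, −1.77 and −1.96 in the reference, without overlap. F3 was lower by a difference of −0.40 ± 0.08 (SE), or 1.32-fold, which turned to 1.31 with spike-in scaling. By the main scaling the activator CUP2 and CUP1 were higher in F3 and CRS5 lower, and with spike-in scaling all of them lay above 0.

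A list of 27 other genes of copper handling, chosen with earlier results of these data known, was put through the same fit. Its p-values and calls are therefore descriptive. All 27 passed the filter. Limma called 22 of them (81.5%, against 79.7% of all genes), with 14 higher and 8 lower in F3, and the counts were the same without F3 culture 2. The median difference of the list was 0.27, against 0.05 for all genes. At least 2-fold, 7 were higher and 3 lower. With spike-in scaling limma called 24 higher and 0 lower (also 0 lower at an unadjusted p under 0.05), and FET4 was the 1 gene of the list with a value below 0. The SE of that fit was 0.30 for every gene of the list, so these spike-in calls are not separate results for each gene. The share called lay near that of all genes, so the list is described by its members.

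**Figure D4:**
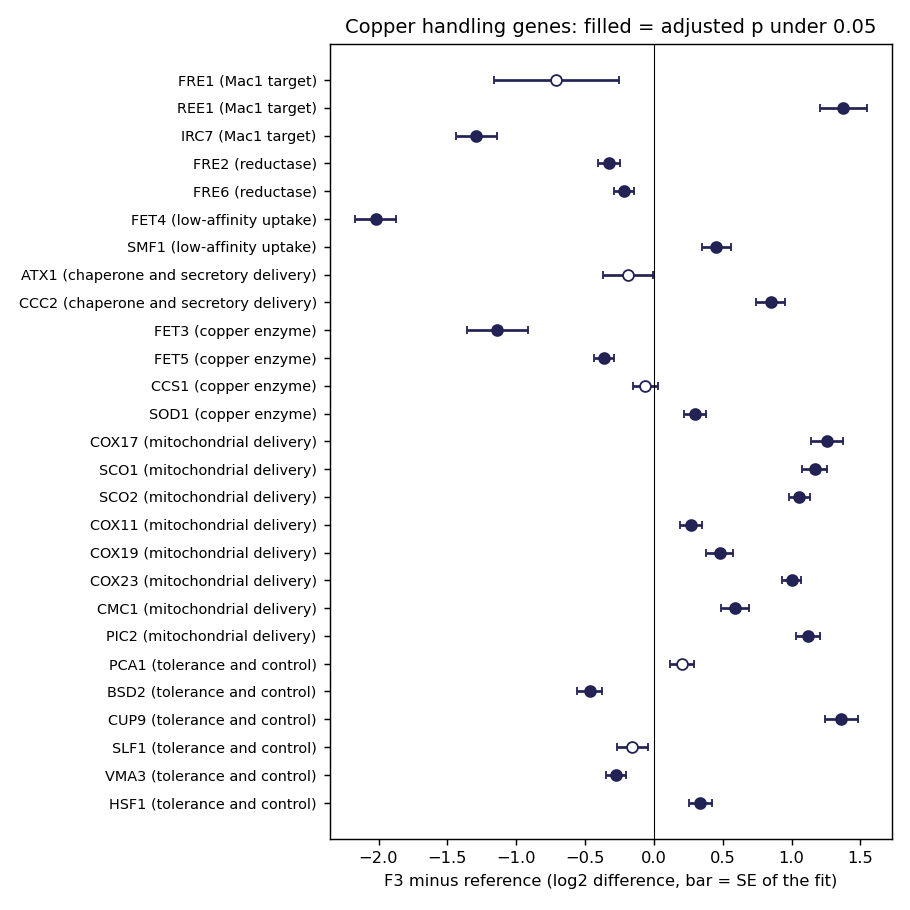
F3 minus reference for the 27 copper handling genes (x axis, log2 difference; bars are the SE of the fit, 3 cultures per strain). Filled points had an adjusted p under 0.05; all 8 genes of copper delivery to mitochondria lie above 0, and FET4 lies lowest at −2.02.

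Genes that deliver copper to cytochrome c oxidase in mitochondria were called higher in F3 in 8 of 8 cases, against 41.5% of all genes, with differences between 0.27 and 1.26 and a median of 1.03. The copper chaperone COX17 was at 1.04, 0.87 and 0.83 in F3 and at −0.36, −0.54 and −0.13 in the reference, and rose by 1.26 ± 0.12 (SE, limma adjusted p = 1.1e-05). SCO1 and SCO2, which hand copper to the oxidase, rose by 1.17 ± 0.09 and 1.06 ± 0.08, and the mitochondrial copper carrier PIC2 by 1.12 ± 0.09. COX23 rose by 1.00, CMC1 by 0.59, COX19 by 0.48 and COX11 by 0.27. None of the 8 overlapped between the strains, which also held for 82.4% of all genes.

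Delivery to other copper enzymes was mixed. CCC2, the copper pump of the secretory pathway, rose by 0.85 ± 0.10 (SE, limma adjusted p = 7.2e-05), whereas ATX1 was not called (−0.19 ± 0.18, adjusted p = 0.364). FET3 fell by 1.14 (SE 0.22, adjusted p = 0.0014, or 0.57 above the reference with spike-in scaling), and its vacuolar paralog FET5 by 0.36 (SE 0.07, or 1.35 above). SOD1, the copper-zinc superoxide dismutase, rose by 0.30 ± 0.08, a call lost with normexp (limma adjusted p = 0.051), while the difference was 0.77 with quantile normalization and 0.82 with the authors' values. Its copper chaperone CCS1 was not called (−0.06 ± 0.09, adjusted p = 0.538).

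Among the other entry routes, FET4, a low-affinity transporter of iron and copper, was at −3.87, −3.32 and −3.66 in F3 and at −1.53, −1.46 and −1.80 in the reference. It fell by 2.02 (SE 0.15, limma adjusted p = 2.7e-06), and with spike-in scaling the difference was −0.31 and not called (adjusted p = 0.306). SMF1, a metal ion transporter, rose by 0.45 ± 0.11. The surface reductase FRE2 and the vacuolar reductase FRE6 fell by 0.33 and 0.21, and both turned above 0 with spike-in scaling (1.38 and 1.50). For FRE2 the difference was −0.62 with quantile normalization and −0.60 with the authors' values. The call of FRE6 was lost with a replicate block and without any 1 of 4 cultures.

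In the group of tolerance and control, CUP9, a transcriptional repressor linked to copper tolerance, rose by 1.36 ± 0.12 (SE, limma adjusted p = 7.8e-06), and HSF1, the heat shock factor that can also activate CUP1, by 0.34 ± 0.08. BSD2, which directs metal transporters to degradation, and VMA3, a subunit of the vacuolar proton pump, fell by 0.46 and 0.27, and lay above 0 with spike-in scaling (1.25 and 1.44). The call of VMA3 was lost with the authors' values (−0.17, limma adjusted p = 0.066). PCA1, a metal pump, and SLF1, an RNA-binding protein linked to copper, were not called (0.20, adjusted p = 0.051, and −0.16, adjusted p = 0.224). PCA1 was called higher without reference culture 1 (0.27, limma adjusted p = 0.016) and among genes well above background on all arrays (adjusted p = 0.048).

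**Figure D5:**
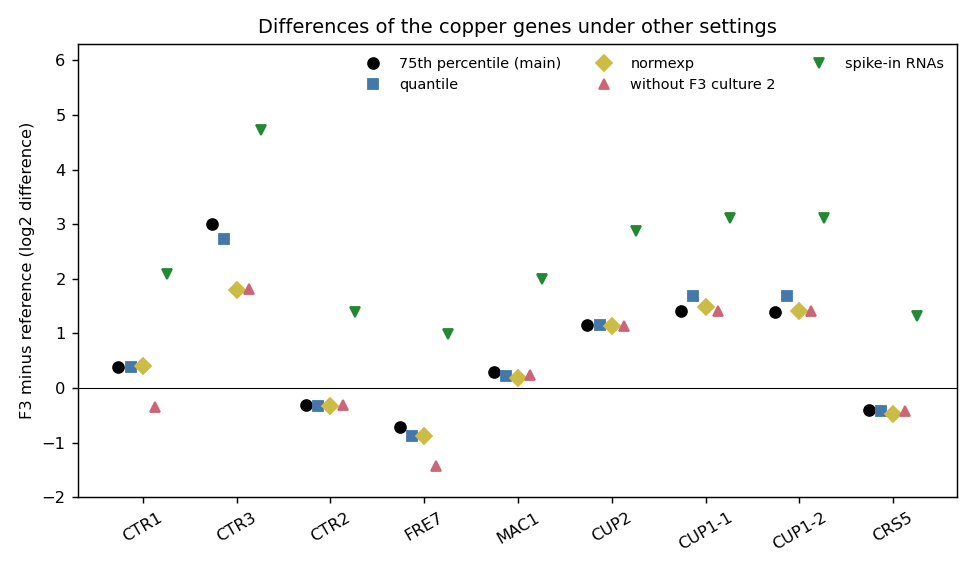
F3 minus reference for the 9 copper genes (y axis, log2 difference) under the main scaling, quantile normalization, normexp, without F3 culture 2 and with spike-in scaling. CTR1 turns below 0 and CTR3 falls to 1.82 without F3 culture 2, and spike-in scaling places all 9 genes above 0, CTR2 at 1.40 and CRS5 at 1.31 included.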

How the data were processed

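Per the labels, RNA came from a column kit, and 0.2 µg was labelled with Cy3. Per the file headers, the authors read the spots in Agilent's Feature Extraction software, version 10.7.3.1 (9.1 in the submitters' processing notes). The deposited processed signal is an intensity, corrected for background and spatial trend on the array and not normalized across arrays. The authors' deposited value table holds log2 values centred so that every probe has a median of 0. Its columns correlated with the scanner values treated alike at r between 0.991 and 0.995, so scale and direction are known and the scaling between arrays is not. Its column medians in F3 cultures 1 to 3 were 0.011, −0.0024 and 0.011, and in the reference cultures −0.0055, −0.0039 and −0.016.

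Levels are the mean log2 processed signal over the 2 spots of each probe, less the array's 75th percentile. Genes entered the test if 3 or more of the 6 arrays had 1 or more spots well above background, leaving 5948 of 6256. Control spots were left out. Strains were compared with limma 3.58.1 in R 4.3.3 (lmFit, then eBayes; two-sided p-values adjusted by Benjamini-Hochberg across the tested genes, called under 0.05). Per the design text, replicates are cultures. The fit was tested on simulated data. Alternatives were median, quantile and spike-in scaling (7 spike-in probes), normexp with an offset of 50 on the median spot and background intensity of the deposited files (the mean signal that had been planned was not in them), other filters, the authors' values, replicate and slide blocks, and leaving out each culture. Symbols came from RefSeq (R64), used for names and gene order only, and 5756 genes matched by locus tag. The 9 genes and the list of 27 were chosen with earlier results of these data known. The genes named were the 9, the list, the neighbours of CUP1 and the 5 genes most like CTR3, and others are marked as chosen after their values were seen.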

Additional observations from a re-analysis of the deposited data

How the results depend on the processing

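Across 15 alternatives, the number of genes called stayed within 1.5 times the main count of 4742. With a replicate block it was 4595. The replicate numbers did not pair the cultures, since same-numbered cultures deviated with r of −0.15, 0.08 and −0.25 across genes, and the block took the copper handling calls from 22 to 21. Spike-in scaling changed most: 5092 genes were higher and 255 lower, 4746 were called at least 2-fold, and of the copper handling genes 24 were higher and 0 lower (limma, also 0 lower at an unadjusted p under 0.05). It placed CTR1 at 2.09, CTR3 at 4.72, CTR2 at 1.40, FRE7 at 0.99, MAC1 at 2.001, CUP2 at 2.87, CUP1-1 at 3.12, CUP1-2 at 3.11 and CRS5 at 1.31. It also turned the sign of FRE1 (1.00), IRC7 (0.42), FRE2 (1.38), FRE6 (1.50), ATX1 (1.52), FET3 (0.57), FET5 (1.35), CCS1 (1.65), BSD2 (1.25), SLF1 (1.55), VMA3 (1.44), YHR054C (1.55) and RSC30 (1.50). The spike-in scaling itself shifts all genes alike within an array. CUP1-1 and CUP1-2 stood at 1.69 and 1.69 with quantile normalization and at 1.72 and 1.72 with the authors' values, and the cause was not tested. Dim signals limit CTR3 in the reference and FRE7 in both strains.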
